A study of Mus musculus with 12 samples.

Results

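The genes described here shape the transverse tubules of muscle or mend its surface membrane. They are 10 genes chosen by name, *Bin1*, *Cav3*, *Mtm1*, *Dnm2*, *Mtmr14*, *Dysf*, *Trim72*, *Anxa1*, *Anxa2* and *Anxa6*, out of 55367 gene symbols in the files, and all 10 were found and passed the filter on low values. RNA was sequenced from single fibers of the extensor digitorum longus (EDL), a fast muscle of the mouse hindlimb, in 12 samples of 4 per group. Young fibers came from mice of 3 to 4 months. Fluo-4 normal and Fluo-4 abnormal fibers both came from aged mice of 26 to 28 months. Fluo-4 is a fluorescent calcium dye, and aged fibers with aberrant staining were separated from the others under a fluorescence stereomicroscope. The methods name C57BL/6J as the strain, bought from the Jackson Laboratory, while aged mice came from the National Center for Geriatrics and Gerontology. As described, the source of the mice and their age cannot be told apart in comparisons with young fibers. Fibers were freed from the muscle with collagenase, and the stain held 8 micromolar Fluo-4 AM. No other agent and no transgene is named for these samples. How many fibers and mice went into a sample is not given in the sources used here, and neither is the sex of the sequenced mice. The paper described the abnormal staining in aged males and hardly detected it in aged females. The aged groups stand for fibers selected by this staining. The values are in TPM, read numbers divided by transcript length and scaled so that every sample sums to 1000000 transcripts. Read depth is unknown, so the precision of a value could only be judged from the spread of the 4 samples in a group.

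Transverse tubules (T-tubules) are invaginations of the surface membrane that carry the action potential into the fiber, where they meet the sarcoplasmic reticulum at the triads. BIN1 has a curved BAR domain that bends membrane into tubes, caveolin-3 forms the caveolae from which tubules are thought to grow, and the phosphoinositide phosphatases MTM1 and MTMR14 and the GTPase dynamin 2 set the lipids and the scission of these membranes. Mutations of *BIN1*, *MTM1* and *DNM2* cause centronuclear myopathies in humans, and mutations of *DYSF* cause a limb-girdle muscular dystrophy. Dysferlin is a calcium-binding protein of the ferlin family, TRIM72 gathers vesicles at a membrane wound, and annexins bind acidic phospholipids when calcium enters and form a cap over the lesion.

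Of the 10 genes, 8 had an upstream window in the RefSeq promoter table, and *Bin1* and *Anxa6* had none. Windows of 3 genes are shown, those of *Dysf* and of *Cavin4*, the gene of a caveolar coat protein of muscle, because both were called below, and that of *Cav3* because its abnormal and young samples did not overlap. Each runs from base 250 to base 16 before the RefSeq start, on the plus strand. They were located in GRCm39 by exact match of the RefSeq sequence (the table is of GRCm38.p6), and each had 1 match, at chr6:83996118-83996352 for *Dysf*, chr6:112436216-112436450 for *Cav3* and chr4:48663264-48663498 for *Cavin4*. The *Dysf* window precedes a transcript start inside the annotated gene. Windows that hold annotated exons were left out, 2 in all among those of these 3 genes and *Trim72*. Capitals mark CANNTG (the E-box, bound by myogenic regulators among others), CCGCCC and TATAAA, searched on both strands.
Dysf: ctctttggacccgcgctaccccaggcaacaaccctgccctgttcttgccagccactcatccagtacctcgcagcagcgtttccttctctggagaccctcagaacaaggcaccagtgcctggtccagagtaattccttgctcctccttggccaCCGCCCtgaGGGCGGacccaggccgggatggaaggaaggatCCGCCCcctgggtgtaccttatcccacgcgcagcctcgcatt
Cav3: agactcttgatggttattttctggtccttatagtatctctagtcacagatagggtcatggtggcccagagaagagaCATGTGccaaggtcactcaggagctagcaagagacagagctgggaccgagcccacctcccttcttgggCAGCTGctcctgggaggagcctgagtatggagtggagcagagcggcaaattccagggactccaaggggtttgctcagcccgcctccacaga
Cavin4: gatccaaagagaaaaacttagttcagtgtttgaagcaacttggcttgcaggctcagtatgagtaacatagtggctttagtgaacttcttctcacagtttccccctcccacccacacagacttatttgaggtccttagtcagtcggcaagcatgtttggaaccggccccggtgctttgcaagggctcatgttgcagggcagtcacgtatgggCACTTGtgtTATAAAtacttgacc
The *Cav3* window held 2 E-boxes, which begin 174 and 106 bases before the start, and the nearer one has the letters CAGCTG. The *Cavin4* window held 1 E-box 39 bases before the start and TATAAA 30 bases before it. The *Dysf* window held no E-box and 3 matches of CCGCCC, and its GC content was 62.1%, against 55.3% for *Cav3* and 47.7% for *Cavin4* and a median of 51.9% over all 32851 windows of this length in the table. Of those windows, 64.1% held an E-box, 12.1% held CAGCTG, 30.6% held CCGCCC and 11.9% held TATAAA.

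The samples had the RNA of myofibers. Summed over 10 myofiber markers, the level was 130440 to 132782 TPM in young, 115890 to 134906 TPM in normal and 136042 to 155843 TPM in abnormal fibers, whereas *Pax7*, which defines satellite cells, reached at most 0.109 TPM, the leukocyte marker *Ptprc* at most 0.262 TPM and the macrophage marker *Adgre1* at most 0.0110 TPM. *Myh4*, the myosin of the fastest fibers, made up 96.9% to 98.6% of the TPM of 4 fast and slow myosin heavy chains in young, 93.7% to 99.2% in normal and 98.9% to 99.7% in abnormal fibers. The abnormal samples were above all young and 3 of the 4 normal samples in this share, and *Bin1* and *Dysf* were also called between the aged groups with the share as a covariate, whereas *Anxa6* (adjusted p = 0.0996) was not. Other cells were present in small and uneven amounts, all 7 fibroblast markers were detected, and their sum was 19.6 to 38.3 TPM in young, 25.4 to 83.1 TPM in normal and 13.6 to 64.4 TPM in abnormal fibers. Fluo-4 normal replicate 2 stood apart in these lists, with the highest summed fibroblast (83.1 TPM), endothelial (29.5 TPM) and erythroid (481.6 TPM) markers of the 12 samples. Without it *Bin1* (adjusted p = 0.0081) and *Dysf* (adjusted p = 0.0095) were called between abnormal and normal fibers and *Anxa6* (adjusted p = 0.0608) was not. Young replicate 2 had 66.7 TPM of smooth muscle markers against at most 21.5 TPM elsewhere. The 5 Schwann cell markers summed to 0.773 to 1.81 TPM in young, 1.42 to 6.60 TPM in normal and 3.63 to 7.98 TPM in abnormal fibers, and 2 of them were called higher in abnormal than in young fibers. The part of these cells in the differences from young fibers was not tested. Satellite cell markers summed to 7.20 to 15.1 TPM, most of it from *Cdh15* (6.04 to 13.8 TPM). Of the 5 adipocyte markers *Adipoq*, *Plin1* and *Lep* were at 0 in every sample. *Cfd* reached at most 2.77 TPM, whereas *Fabp4* had 8.28 to 108.9 TPM. The 10 immune markers, of which *Itgam* was at 0 everywhere, summed to 0.718 to 1.62 TPM in young and 5.75 to 17.3 TPM in aged fibers of both kinds. *Lyz2* made up most of this sum in every aged sample, with 4.58 to 13.8 TPM against 0.269 to 1.04 TPM in young fibers. *Csf1r* reached at most 0.385 TPM. Mitochondrially-encoded genes took 4.75% to 6.92% of the TPM in abnormal, 8.75% to 10.9% in normal and 7.35% to 8.01% in young fibers, and a smaller share of these leaves more TPM for all other genes.

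The 10 genes spanned more than 2 orders of magnitude in level. In every group *Bin1* had the highest level, followed by *Anxa6* and then *Cav3*, and their ranges did not overlap one another or those of the other 7 genes. Among all 14427 tested genes the mean of *Bin1* over the 12 samples, 460.9 TPM, ranked 210, that of *Anxa6*, 104.6 TPM, ranked 845, and that of *Cav3*, 70.01 TPM, ranked 1203. Below these 3 the order was less certain. In young fibers *Mtmr14* (16.3 TPM), *Dnm2* (14.6 TPM) and *Trim72* (13.3 TPM) overlapped as neighbours, as did *Dysf* (9.50 TPM), *Mtm1* (6.54 TPM) and *Anxa2* (4.36 TPM), with *Anxa1* last at 1.119 TPM. In normal fibers all neighbours from *Mtmr14* to *Anxa1* overlapped. In abnormal fibers *Dnm2* (18.4 TPM), *Dysf* (16.7 TPM), *Mtmr14* (16.4 TPM) and *Trim72* (14.3 TPM) overlapped as neighbours, and *Dysf* had rank 5 of the 10, against rank 7 in the other groups.

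**Figure D1:**
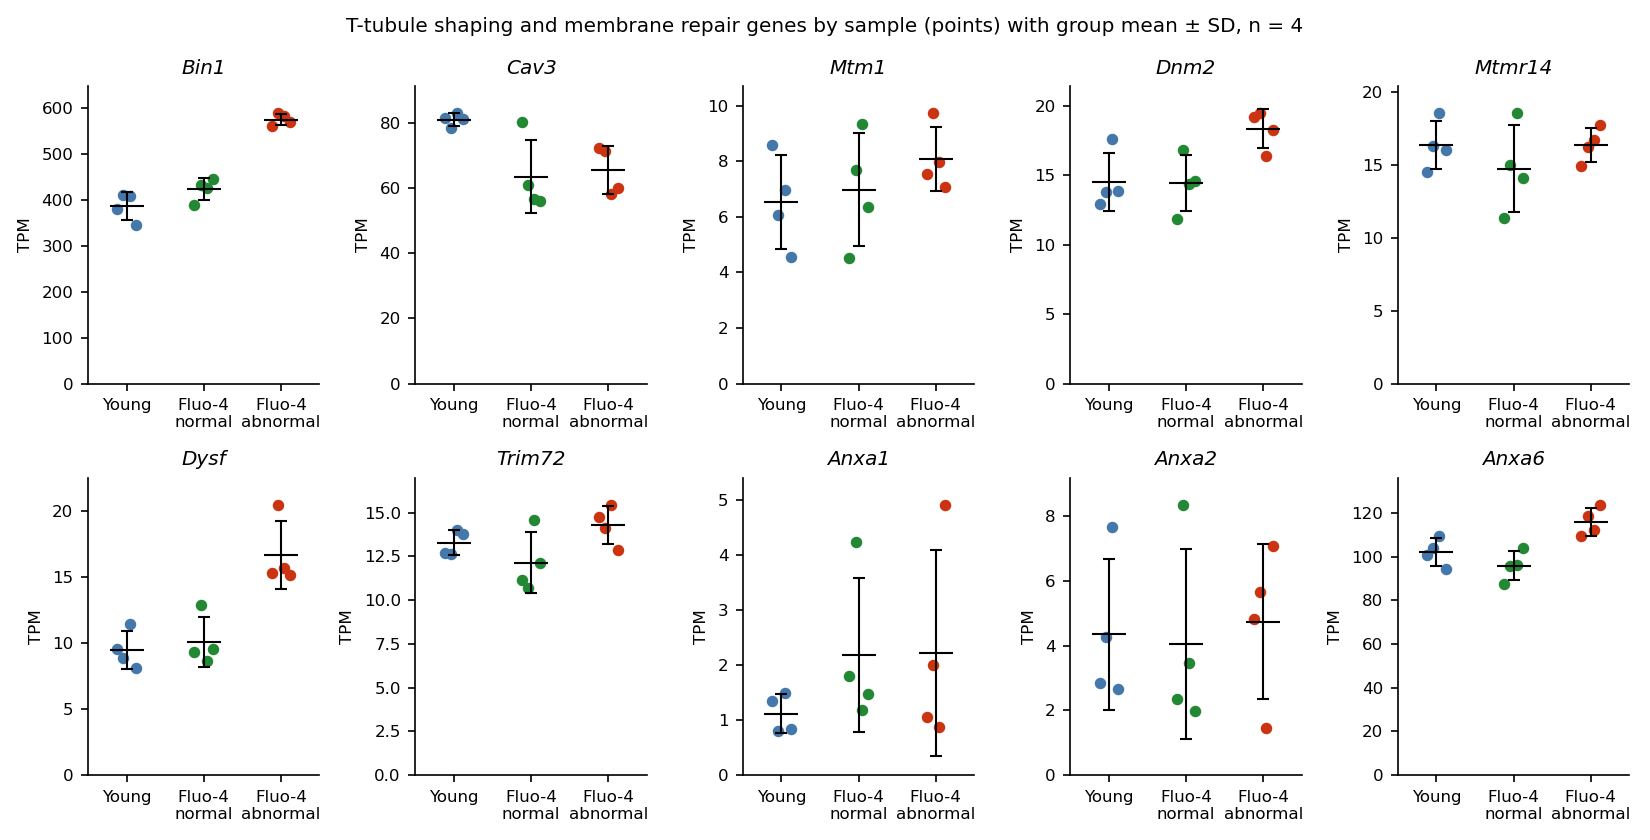
TPM of the 10 genes (vertical axes, from 0) in young, Fluo-4 normal and Fluo-4 abnormal fibers, with 1 point per sample and the mean ± SD of 4 samples in black. The abnormal samples lie above all others for Bin1 and Dysf, whereas Anxa1 and Anxa2 are spread within every group.

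The first comparison asked how abnormal fibers differ from normal fibers of the same age. *Bin1*, *Dysf* and *Anxa6* rose in abnormal fibers, to 1.36, 1.65 and 1.21 times the normal mean, and for each of the 3 every abnormal sample lay above every normal sample. The other 7 genes did not pass the test at an adjusted p of 0.05. Calls came from limma on log2(TPM + 1), with p-values adjusted over all 14427 genes tested, and this scale understates the change of genes at low levels. Of all genes tested 9.35% were called in this comparison, 7.36% higher and 1.99% lower. Groups did not overlap for 14.0%, with abnormal fibers higher for 11.5%. With a filter of 5 TPM fewer genes were tested but more were called, 1419 higher and 291 lower. The share called was thus larger among genes at higher levels, and the shares and medians over all genes are not matched to the level of the 10. The 10 genes had a median log2 change of 0.22, with 9 changes above 0, beside a median of 0.10 over all genes tested, of which 10043 lay above 0. At an unadjusted p under 0.05 were 4 of the 10 and 25.6% of all genes. The calls depend on how the samples are scaled. TMM-type factors, which assume that most genes do not change, lowered the changes of the 10 genes between abnormal and normal fibers by 0.14 to 0.21, the median of all genes to 0.0061 and that of the 10 to 0.044, and over all genes they turned 1062 higher and 287 lower calls into 358 and 544. Scaling without the mitochondrially-encoded genes gave 639 and 322. With TMM-type factors *Bin1* (0.23) and *Dysf* (0.48) were called and *Anxa6* was not. Same-numbered samples of the aged groups deviated together, and with the replicate number as a block all 3 genes were called, but the block and the TMM-type factors in 1 fit left none of the 10 called, with adjusted p = 0.0905 for *Bin1* and 0.0590 for *Dysf*. Both fits with the block held the aged samples only, so they also differ from the main fit in their samples. A fit of these 2 groups without the block called 2 of the 10 and 566 genes in all.

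*Bin1* (chromosome 18, 32509621-32571547, plus strand, GRCm39) is protein-coding, and its exons cover 8892 bases in 21 blocks. Its levels were 379, 410.4, 407 and 345 TPM in young, 388, 432, 426 and 445 TPM in normal and 560, 588, 581 and 568 TPM in abnormal fibers. The abnormal samples were close together and above the other 8, among which young and normal samples overlapped. The log2 change from normal to abnormal was 0.44 (standard error 0.07, adjusted p = 0.0024), which is 0.34 above the median of all genes, and it ranked 96 of 14427 by p. From young to abnormal it was 0.58 (standard error 0.07, adjusted p = 0.00036), and from young to normal 0.13 (95% confidence interval -0.01 to 0.28, adjusted p = 0.43). Within same-numbered aged samples abnormal fibers had 1.28 to 1.44 times the normal level. As abnormal and normal samples did not overlap, abnormal fibers had to be higher in every pair. An antisense RNA, *A830052D11Rik*, shares 543 exonic bases with *Bin1* and had 11.8 to 22.6 TPM. SMART-Seq libraries do not mark the strand, so its reads and those of *Bin1* cannot be told apart there.

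*Cav3* (chromosome 6, 112436466-112449833, plus strand) codes for the caveolin of muscle, whose upstream window is printed above. Its levels were 81.6, 78.3, 83.0 and 81.1 TPM in young, 80.2, 61.1, 56.8 and 56.2 TPM in normal and 72.3, 71.3, 58.1 and 60.1 TPM in abnormal fibers. The young samples were high and close together, every abnormal sample was below them, and normal replicate 1 alone of the aged samples reached the young range. Between abnormal and young fibers the log2 change was -0.31 (standard error 0.11, adjusted p = 0.0998), between normal and young -0.36 (standard error 0.11, adjusted p = 0.14), and between abnormal and normal 0.05 (95% confidence interval -0.18 to 0.29, adjusted p = 0.81). None passed the test. In abnormal against young fibers *Cav3* passed in 5 of 24 alternatives, without normal replicate 1 (adjusted p = 0.0219), with the replicate block (0.0485), with sample quality weights (0.0353), with adjustment for the *Myh4* share (0.0494) and with the block and TMM-type factors together (0.0240). In normal against young fibers it passed in 2, without normal replicate 1 (log2 change -0.48, adjusted p = 0.0168) and with the weights (adjusted p = 0.0216). With TMM-type factors its change between abnormal and normal fibers was -0.16.

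The lipid phosphatases and dynamin 2 gave no call. *Dnm2* (chromosome 9, 21336183-21419059, plus strand) had 12.9, 13.8, 17.6 and 13.9 TPM in young, 11.9, 16.8, 14.4 and 14.6 TPM in normal and 19.3, 19.5, 16.4 and 18.3 TPM in abnormal fibers. Only the lowest abnormal sample fell within the ranges of the others. Its log2 change was 0.33 against normal fibers (95% confidence interval 0.08 to 0.59, adjusted p = 0.0983) and 0.32 against young fibers (0.06 to 0.58, adjusted p = 0.12). *Tmed1*, the gene of a cargo receptor on the other strand, overlaps 387 exonic bases of *Dnm2* and had 29.98 to 44.9 TPM, a level above that of *Dnm2*, so part of the reads of *Dnm2* is uncertain.

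*Mtm1* (chromosome X, 70254373-70359297, plus strand), the myotubularin gene, had 8.60, 6.07, 6.95 and 4.54 TPM in young, 4.52, 7.69, 9.34 and 6.35 TPM in normal and 7.54, 9.73, 7.96 and 7.09 TPM in abnormal fibers. All 3 groups overlapped, and the log2 change from normal to abnormal was 0.22 (95% confidence interval -0.22 to 0.66, adjusted p = 0.54). *Mtmr14* (chromosome 6, 113214722-113258353, plus strand), a phosphatase of the same phosphoinositides, had 14.5, 16.3, 18.5 and 15.99 TPM in young, 11.3, 15.0, 18.5 and 14.1 TPM in normal and 14.9, 16.2, 16.7 and 17.7 TPM in abnormal fibers. Here the groups overlapped as well, with a log2 change of 0.16 against normal (-0.12 to 0.44, adjusted p = 0.47) and 0.01 against young fibers (-0.27 to 0.28, adjusted p = 0.995).

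*Dysf* (chromosome 6, 83985345-84188042, plus strand) had the largest change of the 10 genes between abnormal and normal fibers. Dysferlin is the calcium sensor of membrane repair and is also found at T-tubules. Its levels were 9.57, 8.87, 11.5 and 8.10 TPM in young, 9.35, 12.9, 8.62 and 9.54 TPM in normal and 15.3, 20.5, 15.7 and 15.2 TPM in abnormal fibers. Abnormal replicate 2 was far above the other abnormal samples, and the lowest abnormal sample was still above the highest of the other 8. The log2 change from normal to abnormal was 0.68 (standard error 0.14, adjusted p = 0.0125), 0.57 above the median of all genes, and it was 0.58 (adjusted p = 0.0435) without abnormal replicate 2. From young to abnormal it was 0.75 (standard error 0.14, adjusted p = 0.0068) and from young to normal 0.07 (95% confidence interval -0.24 to 0.39, adjusted p = 0.89). In same-numbered aged samples the ratio was 1.59 to 1.82, and without overlap of the groups every pair had to be higher in abnormal fibers. The antisense genes in the locus were near 0, with at most 0.194 TPM for *Gm33024* and 0.0340 TPM for *Gm15475*.

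*Trim72* (chromosome 7, 127603062-127611190, plus strand), whose product is a muscle ubiquitin ligase that tethers repair vesicles, had 12.7, 12.6, 14.0 and 13.8 TPM in young, 11.1, 10.7, 14.6 and 12.1 TPM in normal and 14.7, 14.1, 15.5 and 12.8 TPM in abnormal fibers. The highest normal sample lay among the abnormal ones. The log2 change was 0.22 (95% confidence interval -0.01 to 0.45, adjusted p = 0.21) against normal and 0.10 (-0.13 to 0.33, adjusted p = 0.64) against young fibers.

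The annexins behaved in different ways. *Anxa6* (chromosome 11, 54869654-54924305, minus strand), the most abundant of the 3, had 100.8, 104.0, 109.4 and 94.4 TPM in young, 87.7, 95.6, 96.1 and 103.9 TPM in normal and 109.3, 118.5, 112.1 and 123.8 TPM in abnormal fibers. Abnormal and normal samples did not overlap, but the highest young sample reached the lowest abnormal one. The log2 change was 0.27 against normal (standard error 0.07, adjusted p = 0.0280), 0.17 above the median of all genes, and 0.18 against young fibers (standard error 0.07, adjusted p = 0.14). In same-numbered aged samples the ratio was 1.17 to 1.25. The call against normal fibers was lost in 10 of 24 alternatives. Among these were the TMM-type factors (0.07, adjusted p = 0.64), a scaling without mitochondrially-encoded genes (0.21, adjusted p = 0.0832) and the removal of normal replicate 1 or 2 or abnormal replicate 2 or 4, where the adjusted p was 0.0608 to 0.0774.

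*Anxa2* (chromosome 9, 69360542-69399077, plus strand) had 2.84, 4.26, 7.68 and 2.65 TPM in young, 2.36, 8.36, 3.47 and 1.99 TPM in normal and 4.82, 5.65, 1.44 and 7.07 TPM in abnormal fibers, and *Anxa1* (chromosome 19, 20350792-20368374, minus strand) had 1.34, 0.801, 1.49 and 0.845 TPM in young, 1.80, 4.25, 1.19 and 1.47 TPM in normal and 1.06, 2.01, 0.879 and 4.92 TPM in abnormal fibers. Both genes are abundant in many non-muscle cells. Samples of 1 group were far apart, from 1.44 to 7.07 TPM for *Anxa2* and from 0.879 to 4.92 TPM for *Anxa1* in abnormal fibers, and *Anxa1* was more even in young fibers. The log2 changes from normal to abnormal were 0.22 (95% confidence interval -0.69 to 1.12, adjusted p = 0.79) for *Anxa2* and -0.05 (-0.79 to 0.69, adjusted p = 0.95) for *Anxa1*. The samples with the most *Anxa1* and *Anxa2* in the aged groups were normal replicate 2 and abnormal replicate 4, and these had the highest summed fibroblast markers of their groups, 83.1 and 64.4 TPM. Abnormal replicate 3 had the least of both annexins in its group and the lowest fibroblast sum, 13.6 TPM. Other samples did not follow this order. Abnormal replicate 1 had a fibroblast sum of 51.5 TPM and the second-lowest *Anxa1* of its group, and among young fibers replicate 3 had the most of both annexins at a sum of 27.8 TPM, while replicate 2 had the highest sum, 38.3 TPM, and the least *Anxa1*. *Dcn* made up most of the fibroblast sum in every aged sample, at 12.7 to 72.3 TPM. Young replicate 3 had the lowest *Dcn* (9.25 TPM) but the highest *Col1a1* (5.34 TPM) and *Col1a2* (5.65 TPM) of the 12 samples. *Col3a1* was highest in young replicate 2 (4.94 TPM). The part of fibroblasts and other such cells in the annexin levels was not tested. RNA from other cells and RNA in the fibers cannot be told apart in such samples.

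**Figure D2:**
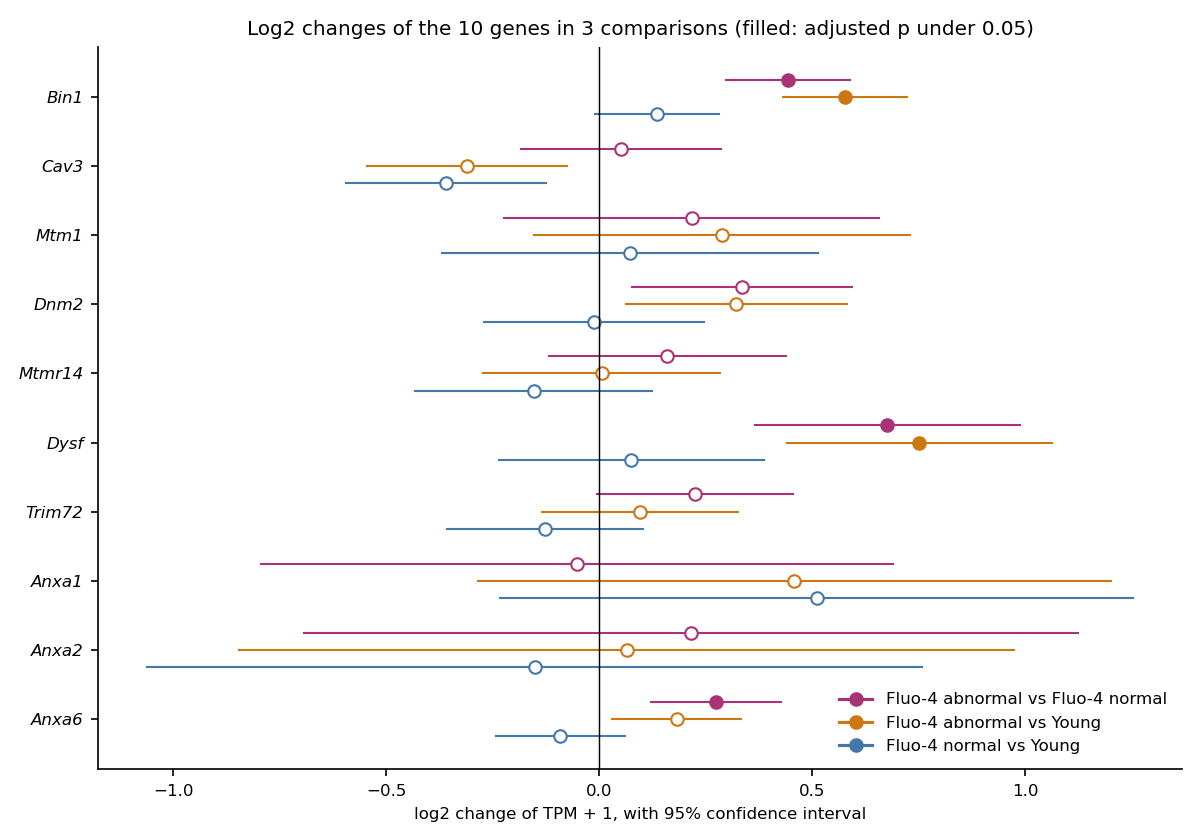
Log2 change of TPM + 1 (horizontal axis) of the 10 genes in 3 comparisons, with 95% confidence intervals and filled points where the adjusted p was under 0.05. Bin1 and Dysf are filled for abnormal against normal and against young fibers, Anxa6 for abnormal against normal fibers alone, and no gene is filled for normal against young fibers.

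Abnormal fibers were next set against young ones, and normal aged fibers against young ones. They share the young samples with each other and the aged samples with the first comparison. Against young fibers *Bin1* and *Dysf* were called in abnormal fibers, both higher, where 8.50% of all genes were called (6.09% higher and 2.41% lower). At an unadjusted p under 0.05 were 5 of the 10 and 23.0% of all genes. *Bin1* and *Dysf* were higher and *Cav3* lower without overlap, as were 12.2% and 3.95% of all genes and 16.2% in either direction. None of the 10 was called between normal and young fibers, where 1.15% of all genes were called (0.561% higher and 0.589% lower), and none had groups without overlap, against 7.99% of all genes, while 1 of them, *Cav3*, had an unadjusted p under 0.05 (12.9% of all genes). With TMM-type factors the calls over all genes changed from 879 higher and 347 lower to 510 and 657 for abnormal against young fibers, and *Bin1* (adjusted p = 0.0021) and *Dysf* (adjusted p = 0.0149) were called there also with the block and these factors together. For normal against young fibers scaling without the mitochondrially-encoded genes changed 81 higher and 85 lower calls to 87 and 61. The study counted a gene as changed where its level was at least 2 times higher or lower than in young fibers, together with a difference between the aged groups. None of the 10 met that rule in this table, *Dysf* with 1.76 times and *Bin1* with 1.49 times the young mean. *Anxa1* had 1.98 times the young mean, with 4.92 TPM in abnormal replicate 4 beside 0.879 to 2.01 TPM in the other abnormal samples. Its difference between the aged groups did not pass the test.

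Ratios of the TPM of 2 members within a sample do not depend on how the samples are scaled. In all, 5 were compared between abnormal and normal fibers with an exact permutation test on the log2 ratio of TPM + 1, where scaling has a small effect through the added 1. The test is two-sided over 70 arrangements and cannot give a p below 0.0286. *Dysf*/*Trim72* was 0.839, 1.202, 0.591 and 0.788 in normal and 1.04, 1.45, 1.02 and 1.18 in abnormal fibers, a mean of 0.855 ± 0.255 against 1.17 ± 0.200 (SD, n = 4), and 1 normal sample lay within the abnormal range. The exact permutation p was 0.11, or 0.57 adjusted over the 5 ratios. Within same-numbered aged samples the ratio was higher in abnormal fibers in 4 of 4 pairs. An exact permutation test within pairs, added after the data were seen, gave p = 0.125, the smallest that 4 pairs allow, or 0.625 adjusted over the 5 ratios. *Bin1*/*Dnm2* was 29.6 ± 2.89 in normal and 31.4 ± 2.80 in abnormal fibers (exact permutation p = 0.34), so a difference in change between *Bin1*, which was called, and *Dnm2*, which was not, did not pass this test. For *Mtm1*/*Dnm2*, *Mtm1*/*Mtmr14* and *Anxa2*/*Anxa6* the exact permutation p was 0.57, 0.69 and 0.94, and every adjusted p was 0.57 or more.

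**Figure D3:**
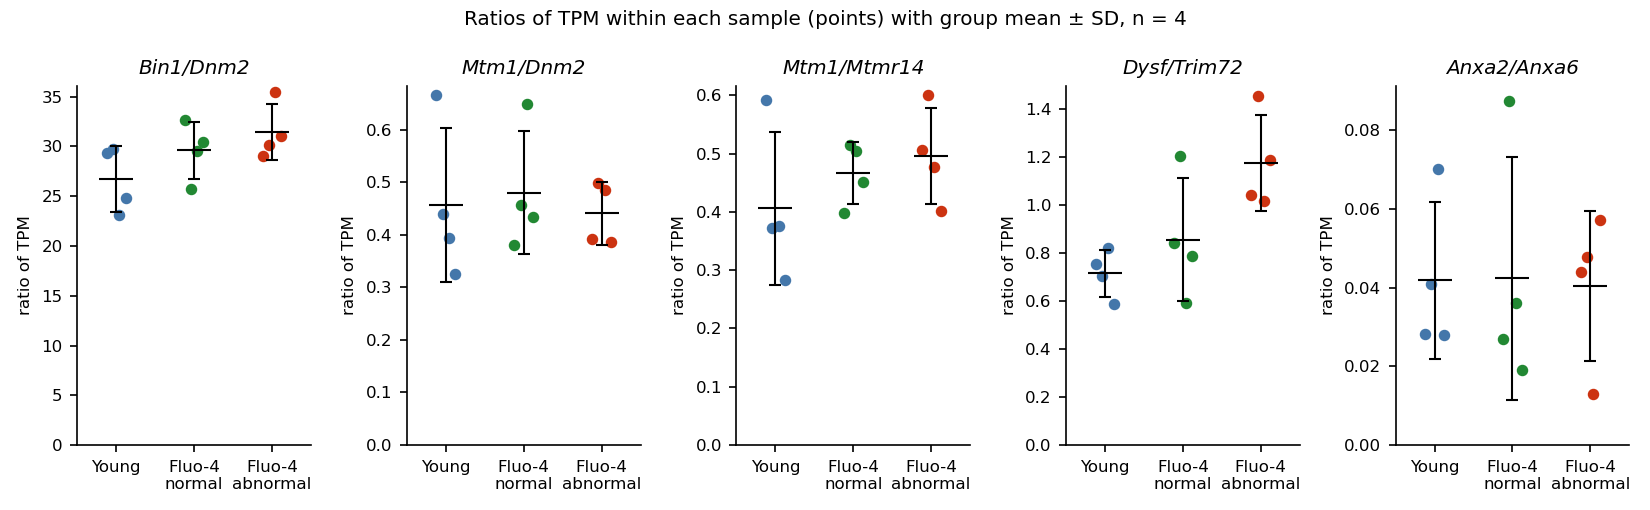
Ratio of the TPM of 2 genes within each sample (vertical axes, from 0), with 1 point per sample and the mean ± SD of 4 samples in black. The 3 groups overlap in every panel but Dysf/Trim72, where the 4 abnormal samples, at 1.02 to 1.45, lie above all young samples and 1 normal sample lies among them.

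Genes that work beside the 10 were taken from 3 lists of 76 genes, of which 75 were tested. In abnormal against normal fibers 14 of the 75 were called, all higher, beside 7.36% of all genes called higher. That share includes genes at low levels and is larger with a filter of 5 TPM, so it is not matched to the level of the companions. The shares and medians over all genes given below are not matched either. With TMM-type factors 7 companions were called, also all higher. For T-tubules and caveolae, 7 of 22 were called, with a median log2 change of 0.20. They were *Cavin1* (0.77) and *Cavin4* (0.60) of the caveolar coat and the junctophilins *Jph1* (0.67) and *Jph2* (0.55) that tie the T-tubule to the sarcoplasmic reticulum. The others were *Bves* (0.48), a caveolin-binding Popeye protein, the F-BAR protein *Pacsin3* (0.37) and the triad protein *Sypl2* (0.27). In this list 7 of 22 genes had a change below 0, and none of these was called. Among them were *Cav1* (-0.68), *Cavin3* (-0.26), *Cavin2* (-0.25), *Cav2* (-0.20) and *Ehd2* (-0.19). For all of these but *Ehd2* the highest of the 12 samples was normal replicate 2, which also had the highest endothelial and fibroblast marker sums. *Cav1* had 39.7 TPM there and 12.5 to 21.4 TPM in the other normal samples. The part of other cells in these changes was not tested. *Cavin4* had 64.3, 61.6, 66.3 and 65.4 TPM in young, 58.2, 73.5, 78.5 and 67.8 TPM in normal and 101.8, 121.7, 101.1 and 98.3 TPM in abnormal fibers, with the abnormal samples apart from both. *Cavin1* had 32.0 to 39.7 TPM in young, 38.0 to 59.0 TPM in normal and 70.6 to 87.5 TPM in abnormal fibers, and *Cavin1*, *Cavin4* and *Jph1* were called in all 24 alternatives.

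*Jph2* had 101.1, 130.0, 117.2 and 93.6 TPM in young, 70.2, 74.2, 75.4 and 73.2 TPM in normal and 101.4, 123.1, 111.2 and 97.8 TPM in abnormal fibers, so that the normal samples were low and the abnormal ones overlapped the young ones. *Jph1* had 72.4 to 88.3 TPM in young, 55.3 to 77.4 TPM in normal and 93.1 to 122.8 TPM in abnormal fibers, was called higher in abnormal than in young fibers (log2 change 0.41, adjusted p = 0.0332) and gave no call between normal and young fibers (-0.26, adjusted p = 0.33). *Jph2* (log2 change -0.57, adjusted p = 0.0156) and *Sypl2* (-0.54, adjusted p = 0.0012) were the only companions called between normal and young fibers, both lower. *Sypl2* was also lower in abnormal than in young fibers (-0.26, adjusted p = 0.0213), with 112.6 to 127.5 TPM against 134.3 to 149.9 TPM.

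Of the membrane repair genes 7 of 26 were called higher in abnormal than in normal fibers, where 7.36% of all genes were, a share not matched to their level. The median log2 change of the list was 0.22, beside 0.10 over all genes. This count moved by over 1.5 times in 14 of 24 alternatives. It was 2 with TMM-type factors and 2 to 7 when 1 replicate was left out, the lowest without abnormal replicate 2. They were the annexins *Anxa4* (0.85), *Anxa7* (0.82) and *Anxa11* (0.32), the giant scaffold proteins *Ahnak* (0.55), which binds dysferlin, and *Ahnak2* (0.47), the vesicle SNARE *Vamp3* (0.33) and *Tsg101* (0.22) of the ESCRT machinery. *Anxa7* had 12.6 to 22.3 TPM in young, 20.2 to 25.3 TPM in normal and 37.3 to 47.6 TPM in abnormal fibers. *Anxa4* had 2.42 to 3.86 TPM in young, 3.26 to 5.78 TPM in normal and 7.82 to 10.1 TPM in abnormal fibers. For both the abnormal samples lay above the other 8. *Ahnak2* was low, at 0.248 to 1.119 TPM in abnormal and at most 0.275 TPM in normal fibers. Its call was lost in 10 of 23 alternatives, with adjusted p up to 0.16, and its log2 change was 1.47 with a pseudocount of 0.1, while the call of *Ahnak* was lost in 5 of 24.

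None of the 27 phosphoinositide enzymes and dynamin relatives was called by limma between abnormal and normal fibers, and 8 had an unadjusted p under 0.05, as did 25.6% of all genes. The median log2 change of the 27 was 0.24, beside 0.10 over all genes. The smallest p-values belonged to the phosphatases *Mtmr3* (0.48, adjusted p = 0.0711) and *Mtmr6* (0.29, adjusted p = 0.0739), to *Vac14* (0.47, adjusted p = 0.0867), the scaffold of the PIKfyve lipid kinase, and to *Pikfyve* itself (0.42, adjusted p = 0.0943). *Mtmr6* had 22.2 to 26.04 TPM in normal and 27.3 to 35.3 TPM in abnormal fibers without overlap. In some alternatives up to 3 of the 27 were called.

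Against young fibers 16 of the 75 companions were called in abnormal fibers, 14 higher and 2 lower, where 8.50% of all genes were called, 6.09% higher and 2.41% lower. Among them were *Anxa4* (log2 change 1.32), *Anxa7* (1.12), *Cavin1* (1.05) and *Cavin4* (0.70), each with the abnormal samples above all young ones. *Ahnak2*, at most 0.035 TPM in young fibers, had a log2 change of 0.65, or 2.5 with a pseudocount of 0.1. Of the phosphoinositide genes 2 were among the 14, *Vac14* (0.69) and the phosphatase *Inpp5k* (0.62), whose human counterpart is mutated in a muscular dystrophy. *Smpd1*, the acid sphingomyelinase that acts on wounded membranes, was lower (-0.31, adjusted p = 0.0406), at 36.9 to 45.6 TPM against 44.9 to 54.2 TPM. The call of *Smpd1* was lost in 10 of 24 alternatives, where the adjusted p was up to 0.11, and that of *Sypl2* and *Vac14* in 5 each.

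**Figure D4:**
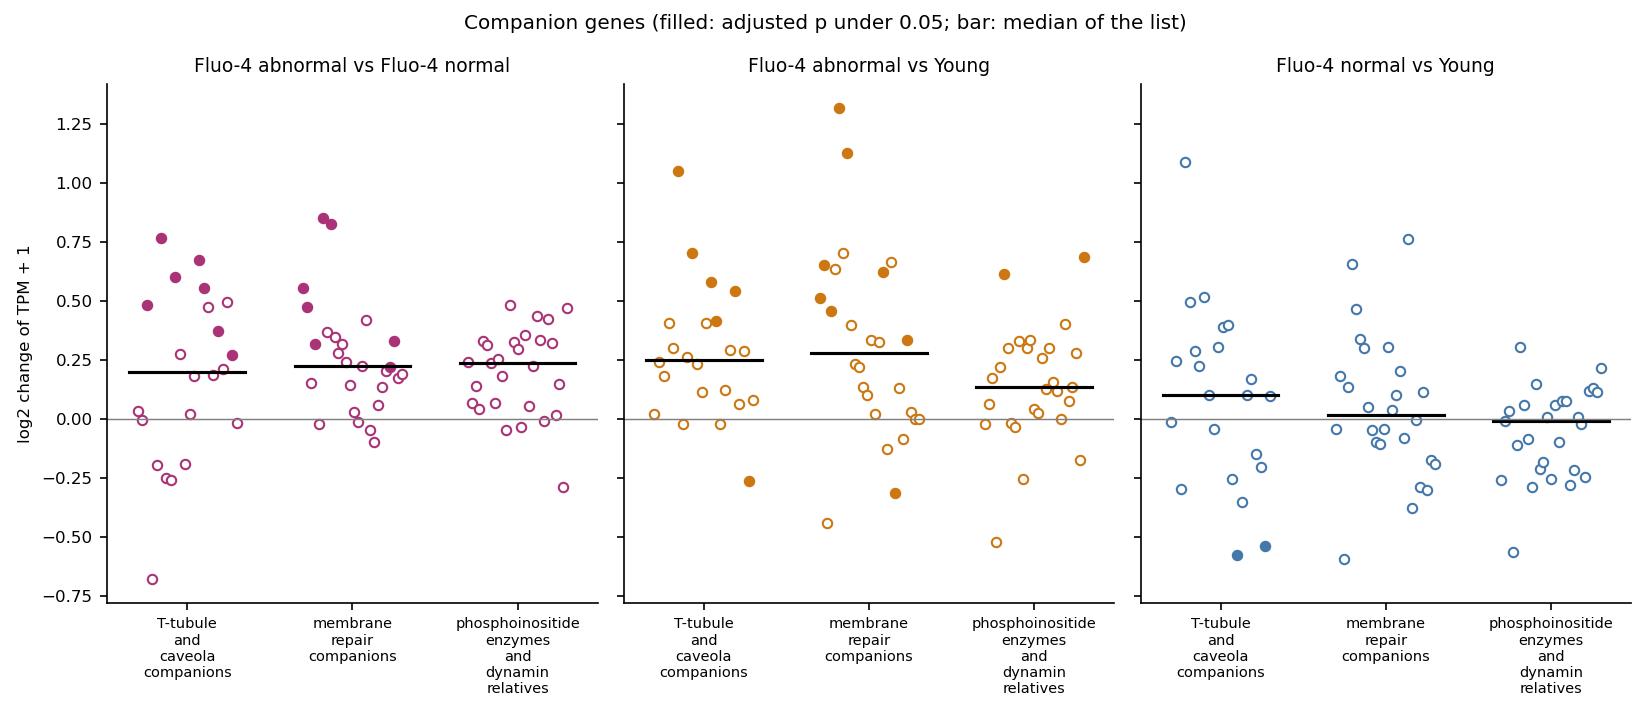
Log2 change of TPM + 1 (vertical axis) of 75 companion genes in 3 lists and 3 comparisons, with 1 point per gene, filled where the adjusted p was under 0.05, and a bar at the median of each list. All filled points of abnormal against normal fibers are above 0, and the 2 filled points of normal against young fibers, Jph2 and Sypl2, are below it.

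For the 3 called genes, the genes with the most similar profile were sought among 5994 genes with a mean of 5 TPM or more, by the root mean square difference of log2 profiles centred over the 12 samples. The nearest to *Bin1* were *Oaz2*, *Grina* and *Ftsj3*, at 0.0554, 0.0559 and 0.0769 against a root mean square of 0.257 for *Bin1* itself. *Oaz2* codes for an antizyme that limits polyamines, and its levels were 138 to 165 TPM in young, 151 to 181 TPM in normal and 215 to 234 TPM in abnormal fibers. The nearest to *Dysf* were *Tbc1d20*, *Ywhaz* and *Ociad2*, at 0.138, 0.144 and 0.147 against 0.383, and the nearest to *Anxa6* were *Fxr1*, *Dnaja2* and *Plpp3*, at 0.0491, 0.0513 and 0.0576 against 0.138. *Ociad2* shared with *Dysf* a high value in abnormal replicate 2, 88.1 TPM beside 56.1 to 58.6 TPM in the other 3.

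Near-identical copies were no source of doubt at the scale of whole transcripts. Of the 10 genes 0 had another transcript with 95% identity over 50% or more of their length, and the matches of 100 bases or more were short stretches, up to 190 bases, nearly all in *Mtmr14*. Other overlapping genes that had values were low, with 0.360 to 1.17 TPM for *Gm15533* at *Trim72* and 0.968 to 2.55 TPM for *Gm15492* at *Mtmr14*. The level of *Gm74393*, which shares 95 exonic bases with *Anxa6*, is unknown because it had no values. The same holds for *Gm19911* at *Anxa6*, *Gm35649* at *Cav3* and *Gm67586* and *Gm57035* at *Dnm2*.

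**Figure D5:**
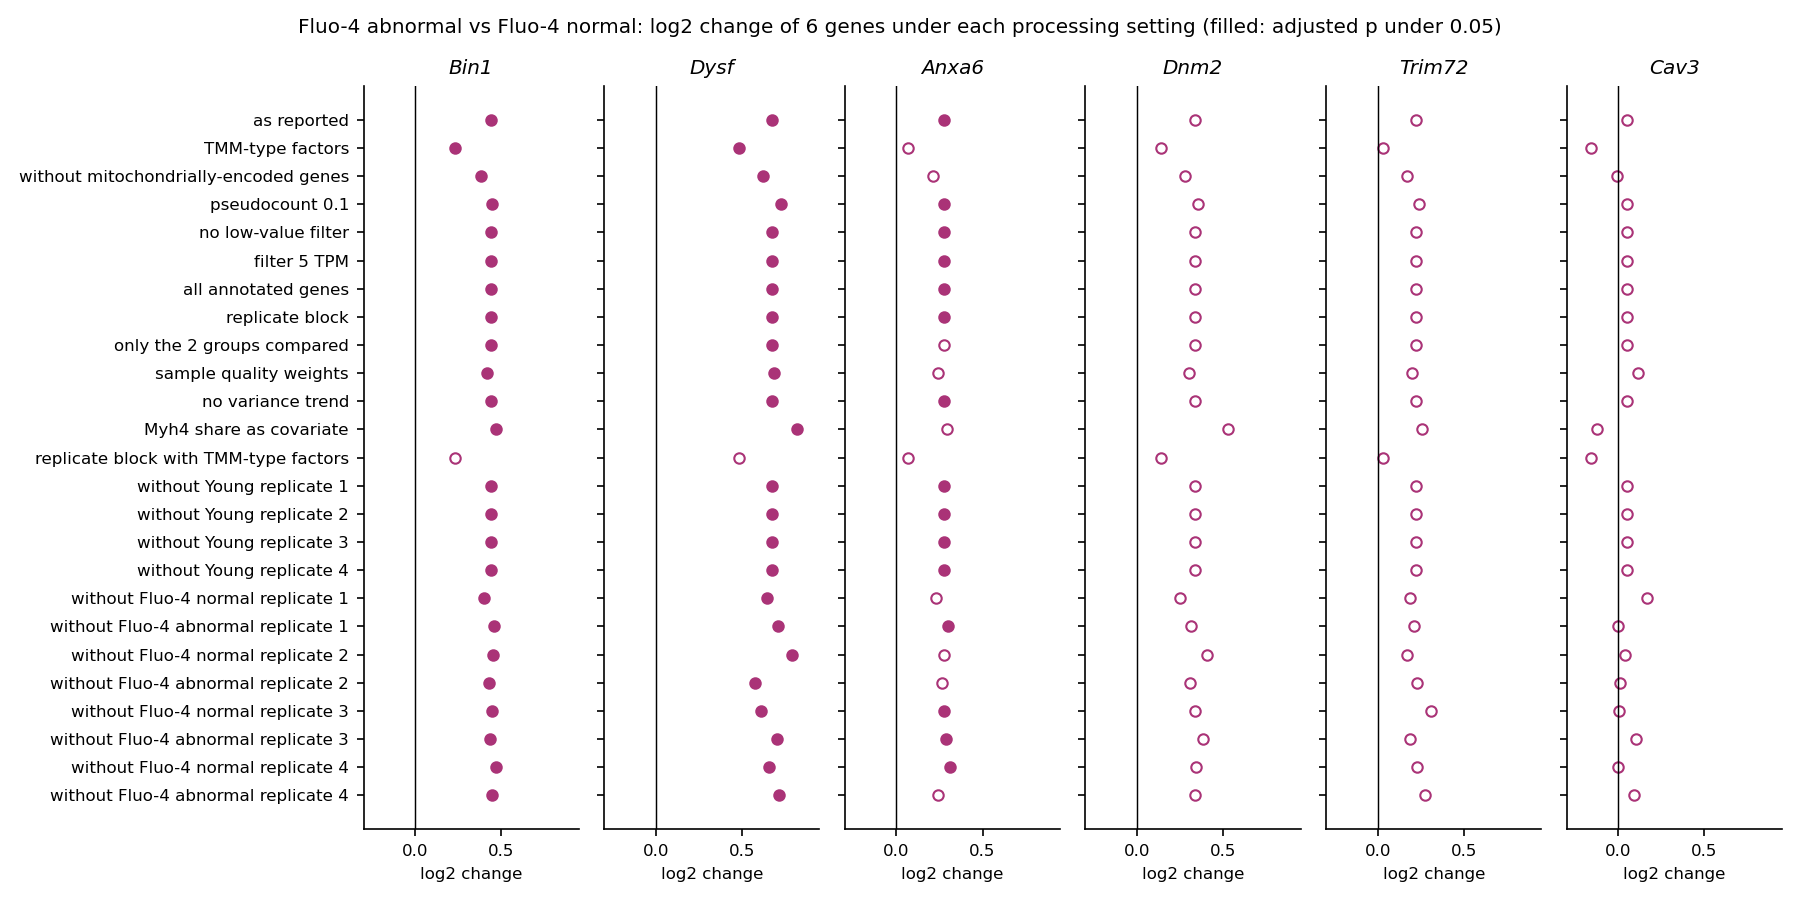
Log2 change from Fluo-4 normal to Fluo-4 abnormal fibers (horizontal axes) of 6 genes under the reported setting and 24 alternatives (rows), with filled points where the adjusted p was under 0.05. Bin1 and Dysf are filled in all rows but the replicate block with TMM-type factors, and Anxa6 is filled in 14 of the 24 alternatives.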

How the data were processed

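Young, Fluo-4 normal and Fluo-4 abnormal EDL fibers were profiled in 4 samples each. The authors prepared SMART-Seq v4 libraries from 10 ng of total RNA, aligned reads to GRCm39 with DRAGEN 4.3 (named in the submitters' processing notes, its version in the methods) and deposited TPM values, 1 table per sample. The annotation release is not given in the sources used here. Each table listed 55487 entries, and 114 symbols on several lines were summed. Symbols were matched to GENCODE vM39, which gave the coordinates, and to RefSeq, and 2885 unmatched symbols held 0.243% to 0.298% of the TPM. Whether samples of 1 group came from separate mice is not stated, so p-values measure the spread between these samples, which may be technical.

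Protein-coding and mitochondrially-encoded genes with a mean of at least 0.02 TPM in 1 group were tested, 14427 in all. The 3 groups were compared in 1 linear model of log2(TPM + 1), using limma 3.58.1 under R 4.3.3 and its variance trend. Benjamini-Hochberg adjusted p-values under 0.05 were called. The fit was tested on simulated data. Ratios were tested by exact permutation with scipy 1.17.1, and copies were sought with BLAST 2.17.0. TMM-type factors (trims of 30% and 5%) were used as scale factors only.

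The same replicate numbers occur in each group. Over 4468 genes with a mean of 10 TPM or more, deviations from the group means correlated by 0.33 to 0.51 in the 4 same-numbered aged pairs. The reported calls and the main test of the ratios did not use these pairs. They were used in the replicate block, the comparisons within same-numbered samples and the added test within pairs. The source of this pairing is the data, since the labels do not say that a number marks a mouse.

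The 10 genes, the companion and marker lists, the tests and the alternatives were chosen with earlier results of these data known. Named were the 10 genes, up to 4 genes of each companion list with the smallest p between the aged groups, the 3 most similar genes for each called gene, and genes that overlap one. Other companions that were called were named after their values were seen. Alternatives are given in the closing section.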

Additional observations from a re-analysis of the deposited data

Results flagged for a closer look

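In groups of 4 samples, the gap between the most distant sample and its neighbour was compared with the range of the group. *Dysf* in Fluo-4 abnormal fibers was the only one of 45 groups checked that passed Dixon's 95% critical value, with replicate 2 at 20.5 TPM beside 15.2 to 15.7 TPM in the other 3 and a gap of 0.908 of the range. Chance alone would give such a gap in about 1 of 20 groups. Without this sample the log2 change of *Dysf* against normal fibers was 0.58 (adjusted p = 0.0435, limma).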

How the results depend on the processing

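Read depth was unknown, so no limit from counts could be set. Between abnormal and normal fibers the called genes numbered 566 with only these 2 groups in the fit, 820 when the *Myh4* share was a covariate and 523 under the replicate block and TMM-type factors together, an alternative added after the data were seen. With that pair of changes, in a fit that also left out the young samples, 0 of the 10 genes were called. The companions called there numbered 7 with TMM-type factors, 9 without mitochondrially-encoded genes, 9 over all annotated genes, 8 with the 2 groups, 7 with the *Myh4* share and 4 with the block and TMM-type factors. Between normal and young fibers the called genes numbered 266 with a filter of 5 TPM, 320 with the replicate block, 69 with the 2 groups, 358 with sample quality weights and 364 with the block and TMM-type factors, 1 of the 10 genes (*Cav3*) was called with the weights, and companions numbered 1 with the 2 groups and 4 with the block and TMM-type factors. The causes were not tested.

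Leaving out 1 replicate gave 665 to 1456 called genes, 2 to 3 of the 10 and 7 to 15 companions between abnormal and normal fibers, 604 to 1676, 2 to 3 and 11 to 18 between abnormal and young, and 55 to 207, 0 to 1 and 1 to 3 between normal and young fibers. The lowest counts came without abnormal replicate 2 (665), young replicate 4 (604) and young replicate 2 (55). Differences in the log2 ratio of TPM + 1 then ranged from -0.30 to 0.29 for *Anxa2*/*Anxa6*, -0.029 to 0.15 for *Mtm1*/*Mtmr14* and -0.20 to 0.017 for *Mtm1*/*Dnm2*.

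The replicate block alone left the 3 calls between abnormal and normal fibers, with adjusted p = 0.0189 for *Bin1*, 0.0190 for *Dysf* and 0.0277 for *Anxa6*, and gave 1150 called genes there. For this comparison the fit with the block left out the young samples. Same-numbered young and aged samples correlated less, by -0.12 to 0.24, and not every sample correlated best with its own number. Whether a number marks something shared by all groups was not tested. The block with all 12 samples gave *Cav3* an adjusted p of 0.0485 (limma) between abnormal and young fibers.

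Changes near 0 turned sign. Between abnormal and normal fibers *Cav3* was -0.16 with TMM-type factors, with and without the block, -0.0094 without mitochondrially-encoded genes and -0.12 with the *Myh4* share, *Anxa1* was 0.014 with weights and 0.28 with the *Myh4* share, and *Mtmr14* was -0.036 with TMM-type factors, with and without the block. Between abnormal and young fibers these factors gave -0.045 for *Trim72*, -0.055 for *Anxa2* and -0.14 for *Mtmr14*, which was -0.023 without mitochondrially-encoded genes. Between normal and young fibers *Mtm1* was -0.11 with the *Myh4* share, and *Dnm2* was 0.041 with TMM-type factors, with and without the block, 0.017 with weights and 0.016 without mitochondrially-encoded genes. Leaving out 1 replicate gave -0.0032 to 0.17 for *Cav3* and -0.40 to 0.22 for *Anxa1* between abnormal and normal fibers, -0.14 to 0.43 for *Anxa2* and -0.046 to 0.064 for *Mtmr14* between abnormal and young fibers, and -0.067 to 0.24 for *Mtm1*, -0.085 to 0.077 for *Dnm2*, -0.037 to 0.16 for *Dysf* and -0.50 to 0.11 for *Anxa2* between normal and young fibers.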
